A study of Mus musculus with 8 samples.

Results

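Keratins, cadherins, Epcam and Vim are the genes by which epithelial and mesenchymal cells are usually told apart. Their transcripts were followed in mouse 3134 cells with and without dexamethasone, in 2 arms of a cell line that carries a regulated AP-1 inhibitor. The group has 10 members: the type II keratin genes Krt5, Krt7 and Krt8, the type I keratin genes Krt14, Krt18 and Krt19, the cadherin genes Cdh1 and Cdh2, and Epcam and Vim. Probe sets annotated with exactly 1 of these symbols were taken, and each gene had 1 such probe set. They are 10 of 19938 genes tested.

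Keratins build the intermediate filaments of epithelial cells as pairs of a type I and a type II chain. Krt8 with Krt18 is the usual pair of simple epithelia and of mammary luminal cells, where Krt7 and Krt19 are also found, and Krt5 with Krt14 is the pair of basal and myoepithelial cells. Vimentin, the product of Vim, forms the corresponding filaments in mesenchymal cells. In an epithelial-mesenchymal transition cells lose E-cadherin (Cdh1) and keratins and gain vimentin and N-cadherin (Cdh2). AP-1 is a transcription factor built of Fos and Jun proteins, and dexamethasone is a synthetic ligand of the glucocorticoid receptor.

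The 3134 line was derived by transformation of C127, which came from a mammary tumour of an RIII mouse. All samples carry stably integrated A-fos, a dominant negative that blocks DNA binding by AP-1, and the tetracycline regulator tTA, in a Tet-Off arrangement in which tetracycline shuts A-fos off. Before hormone, all cells spent 48 h in serum that had been charcoal-treated. The 4 groups, each with 2 arrays, were plus-titled cells given 100 nM dexamethasone for 4 h, untreated plus-titled cells (0 h), no-titled cells given 100 nM dexamethasone for 4 h, and untreated no-titled cells (0 h). The arms are named by the tetracycline state in the sample titles. The treatment protocols give the opposite state for every sample, so which arm expressed A-fos is not settled, and signs below carry no statement about A-fos. The labels do not say whether the line is a single clone or whether the 2 arrays of a group came from separate cultures, so the spread behind every p-value is that between arrays and may be technical.

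Over the genes tested, the arrays had log2 medians of 5.59 to 5.69, and replicates correlated at 0.9932 to 0.9956 across genes. The hormone acted in both arms: Fkbp5, a co-chaperone of the glucocorticoid receptor, rose by 3.32 ± 0.12 (log2, SE) in the plus-titled arm and by 3.05 ± 0.12 in the no-titled arm. Milk protein genes and markers of leukocytes, endothelial cells, adipocytes and pituitary corticotrophs were read as lists of other programs or cells. Of their 33 measured members, 1 was called in any of the 4 comparisons between groups, the adipocyte marker Fabp4. It rose by 1.68 with hormone in the no-titled arm and was lower in the plus-titled arm at 4 h (-1.35). The hormone comparisons called 1.1% of all genes in the plus-titled arm and 1.43% in the no-titled arm. The arm comparisons called 9.61% of all genes at 4 h and 9.38% at 0 h. The mean log2 signal of the 6 adipocyte markers was 4.42 to 4.48 in plus-titled cells at 4 h and 4.37 to 4.46 at 0 h, against 4.74 to 4.85 in no-titled cells at 4 h and 4.52 to 4.65 at 0 h. It was thus higher on every no-titled array, and its part in the arm differences below was not tested. These means lay around 4.66, the 95th percentile of genes not thought to be expressed, whose median was 3.01 (described below). Of the 6 adipocyte markers 3 exceeded 4.66, as did 16 of the 33 members of all these lists. At 4 h Fabp4 had 4.63 and 4.82 on plus-titled and 6.08 on both no-titled arrays. Over the 8 arrays Adipoq, Plin1, Cidec, Pparg and Fabp4 overlapped between the arms, and Lep was lower on all plus-titled arrays. The array means of the other lists ran from 4.38 to 4.58 (7 milk protein genes), 4.40 to 4.56 (7 leukocyte markers), 4.78 to 4.94 (7 endothelial markers) and 4.34 to 4.66 (6 corticotroph markers). Fewer cells of a type and less RNA per cell cannot be told apart in these bulk samples.

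The labelled mammary origin was set against the signal of these genes themselves. As a yardstick of probe sets for genes not thought to be expressed in mammary cells, 1194 olfactory and vomeronasal receptor genes were used. Their mean log2 signals had a median of 3.01 and a 95th percentile of 4.66, a level that 68.8% of all genes exceeded. Epcam, an epithelial adhesion molecule, averaged 4.39 over the 8 arrays and lay below that percentile. Krt19 at 4.78, Krt5 at 4.88, Cdh1 at 4.95 and Krt18 at 5.09 lay just above it. Krt14 at 5.79, Krt7 at 5.83 and Krt8 at 5.86 lay near the middle of all genes (percentiles 51.7, 52.4 and 52.7). The Krt14 mean joined unlike levels, 6.49 in the no-titled arm and 5.09, just above the yardstick, in the plus-titled arm. Cdh2 averaged 9.01 (percentile 93.6), and Vim averaged 12.8 and ranked 5 among the 19938 genes. Probe sets differ in how strongly they bind, so these places describe each probe set's signal and do not rank RNA amounts between genes. Of 23 measured regulators and surface genes of epithelial identity, a list without keratins, 16 exceeded the yardstick. So did 19 of 22 mesenchymal markers and 13 of 15 transcription factor genes linked to epithelial-mesenchymal transition.

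**Figure D1:**
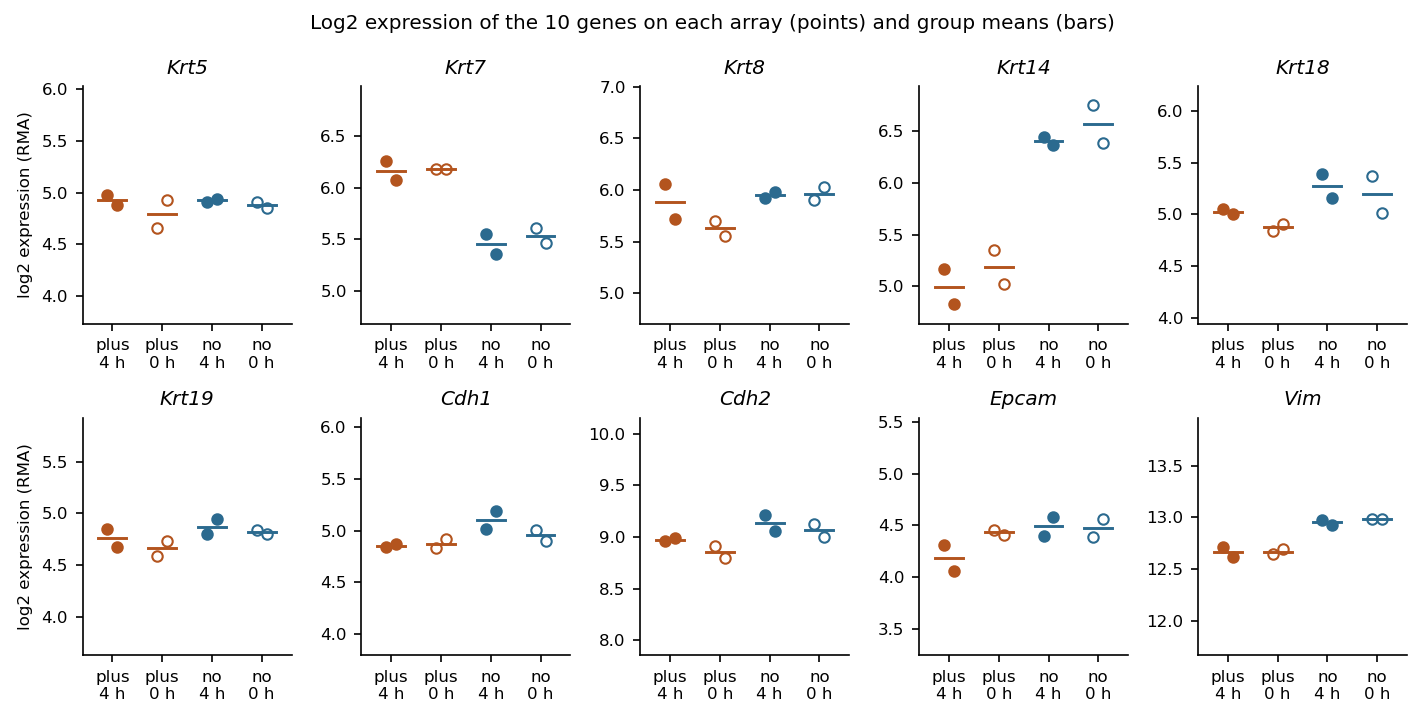
Log2 expression (RMA values, y axis) of the 10 genes on each of the 8 arrays. Points are arrays, short bars are means of 2 arrays, and filled points are 4 h dexamethasone. Every panel spans the same number of log2 units around the gene's own mean. Krt14 is lower and Krt7 higher on all 4 plus-titled arrays than on any no-titled array, and Vim and Cdh2 are separated by less.

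The clearest difference within the group lay between the arms, in 2 keratins of opposite direction. Krt14, the basal type I keratin gene, was 2.66-fold lower in the plus-titled arm at 4 h and 2.62-fold lower at 0 h. Krt7, a luminal type II keratin gene, was 1.64-fold higher in the plus-titled arm at 4 h and 1.57-fold higher at 0 h. The other 8 genes did not pass the test at either time.

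Krt14 had log2 values of 5.17 and 4.83 in plus-titled cells at 4 h and 5.35 and 5.02 in plus-titled cells at 0 h, against 6.44 and 6.37 in no-titled cells at 4 h and 6.76 and 6.39 in no-titled cells at 0 h. The 4 plus-titled arrays were all low and the 4 no-titled arrays all high, with no overlap. The difference, plus-titled minus no-titled, was -1.41 ± 0.17 at 4 h (log2, SE, 95% interval -1.78 to -1.04, limma adjusted p = 0.000771). At 0 h it was -1.39 ± 0.17 (95% interval -1.75 to -1.02, adjusted p = 0.00093). Without any 1 of the 8 arrays the differences stayed called, between -1.58 and -1.24 at 4 h and between -1.57 and -1.20 at 0 h.

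Krt7 had values of 6.26 and 6.07 in plus-titled cells at 4 h and 6.18 on both arrays of plus-titled cells at 0 h. In no-titled cells they were 5.55 and 5.36 at 4 h and 5.61 and 5.46 at 0 h. Here the plus-titled arrays were the high ones, again with no overlap. The difference was 0.71 ± 0.12 at 4 h (95% interval 0.45 to 0.98, adjusted p = 0.00474) and 0.65 ± 0.12 at 0 h (95% interval 0.39 to 0.92, adjusted p = 0.00776). Without replicate 2 of the untreated no-titled group the call at 0 h was lost (0.58, adjusted p = 0.0763, the highest of its 17 alternatives, which began at 0.00312).

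These 2 genes were the members called among 10 at each time, 1 higher and 1 lower. Over all genes tested, 9.61% were called at 4 h (5.29% higher and 4.32% lower) and 9.38% at 0 h (6.2% higher and 3.18% lower). Groups that do not overlap are common with 2 arrays each: at both times 7 of 10 members had non-overlapping arms (1 higher and 6 lower), against 51.7% of all genes at 4 h and 49.8% at 0 h. The median difference of the 10 genes was -0.20 at 4 h and -0.18 at 0 h, beside -0.01 and -0.02 for all genes.

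**Figure D2:**
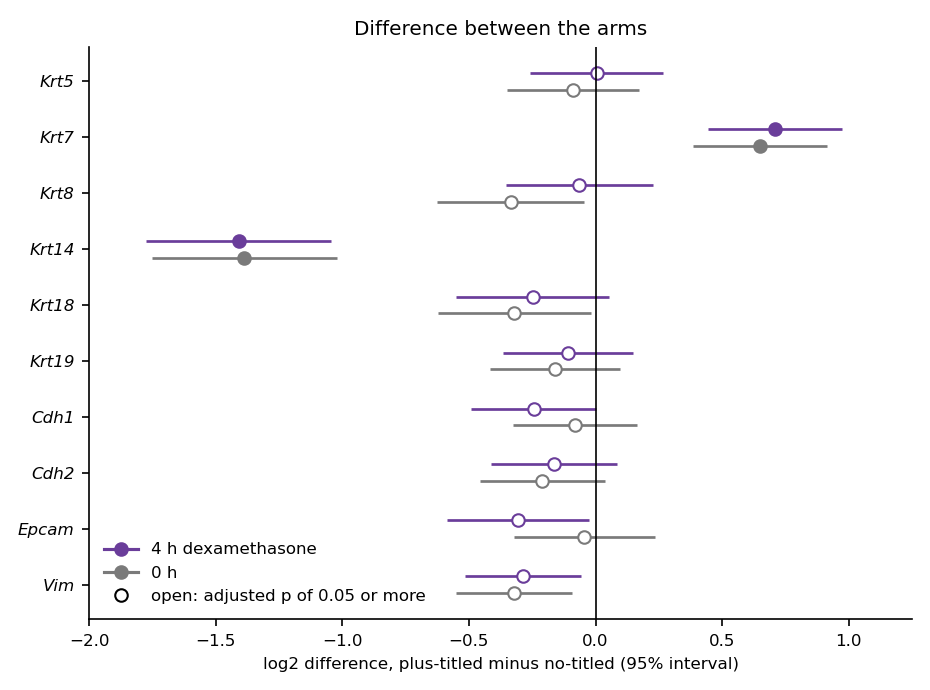
Arm difference on the log2 scale (plus-titled minus no-titled, x axis) for each gene at 4 h and at 0 h, with 95% intervals from the limma model. Filled points passed an adjusted p of 0.05. Krt14 (-1.41 and -1.39) and Krt7 (0.71 and 0.65) pass at both times, and the intervals of the other genes lie nearer to 0.

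Promoter windows of Krt7 and Krt14 are shown because these are the keratin genes that differed between arms built to differ in AP-1 binding. The windows run from 250 bases before to 50 bases after the RefSeq start of each gene in GRCm38.p6, 5′ to 3′ on the gene's strand: chr15:101412153-101412452, plus strand, for Krt7 and chr11:100205981-100206280, minus strand, for Krt14. Capitals mark GC boxes (GGGCGG on either strand).
Krt7: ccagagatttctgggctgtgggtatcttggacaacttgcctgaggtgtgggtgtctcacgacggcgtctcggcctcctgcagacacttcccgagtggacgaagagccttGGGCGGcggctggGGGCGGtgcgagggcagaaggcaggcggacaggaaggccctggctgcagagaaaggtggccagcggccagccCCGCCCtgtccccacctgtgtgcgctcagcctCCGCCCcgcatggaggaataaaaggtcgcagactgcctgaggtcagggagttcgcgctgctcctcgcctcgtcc
Krt14: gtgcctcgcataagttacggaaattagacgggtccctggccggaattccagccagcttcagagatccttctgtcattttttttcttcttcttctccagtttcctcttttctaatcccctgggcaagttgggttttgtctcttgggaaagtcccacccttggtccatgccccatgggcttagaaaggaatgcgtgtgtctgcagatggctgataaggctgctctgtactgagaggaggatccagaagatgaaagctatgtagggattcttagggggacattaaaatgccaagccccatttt

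The Krt7 window held 4 GC boxes, beginning 141, 128, 56 and 24 bases before the start, and its GC content was 66.3%. The Krt14 window held none, and its GC content was 48.3%. Of the 32851 promoter windows in the table, 35.7% held a GC box, and the median GC content was 52.7%. Windows were available for 7 of the 10 genes. Both strands of each were also searched for the AP-1 site TGANTCA, the cyclic AMP response element TGACGTCA, the full glucocorticoid response element (AGAACA and TGTTCT with 3 bases between them), its single arm AGAACA (which the full element contains) and the TATA box TATAAA. The AP-1 site was in 0 of the 7 windows and in 7.81% of all windows. The cyclic AMP response element (1.79% of all windows) and the full glucocorticoid response element (0.00913%) were in 0 of the 7 as well. The single arm was in the Krt18 window only (19% of all windows), and the TATA box in those of Krt8 and Vim (13.6%). These are matches of letters in short windows, not binding sites. Whether the cells start these transcripts at the positions used was not tested, so a missing motif describes the window only.

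The partner keratins of Krt7 and Krt14 did not pass. Krt5, the type II partner of Krt14, had 4.98 and 4.88 in plus-titled cells at 4 h and 4.66 and 4.93 at 0 h, against 4.91 and 4.94 in no-titled cells at 4 h and 4.91 and 4.85 at 0 h. The arms overlapped at both times. The Krt5 difference was 0.00 at 4 h (95% interval -0.26 to 0.27) and -0.09 at 0 h (95% interval -0.35 to 0.17). The 95% intervals of Krt14 and Krt5 thus did not meet. Krt5 averaged 4.88 over the 8 arrays, just above the yardstick of 4.66, where a fall may not show.

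Krt8 had 6.06 and 5.72 in plus-titled cells at 4 h and 5.70 and 5.56 at 0 h, against 5.92 and 5.98 in no-titled cells at 4 h and 5.90 and 6.03 at 0 h. Its lowest group was untreated plus-titled cells, which did not overlap with untreated no-titled cells. The difference was -0.34 at 0 h (95% interval -0.63 to -0.05, adjusted p = 0.153) and -0.06 at 4 h (95% interval -0.35 to 0.23). Krt18, its type I partner, had 5.05 and 5.01 in plus-titled cells at 4 h and 4.84 and 4.91 at 0 h, against 5.40 and 5.16 in no-titled cells at 4 h and 5.37 and 5.02 at 0 h. It was lower in the plus-titled arm at both times without overlap, by values that did not pass (-0.25 at 4 h, adjusted p = 0.331, and -0.32 at 0 h, adjusted p = 0.192). Krt19, a type I keratin without a fixed partner, lay between 4.59 and 4.85 on plus-titled and between 4.799 and 4.946 on no-titled arrays. The arms overlapped at 4 h and not at 0 h. Its differences were -0.11 at 4 h and -0.16 at 0 h (adjusted p = 0.665 and 0.474).

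Keratin genes lie in 2 clusters, the type I genes on chromosome 11 and the type II genes with Krt18 on chromosome 15. No neighbour of Krt14 or Krt7 was called at either time. The 3 tested genes on either side of Krt14 in the RefSeq order are Krt15, Krt19 and Krt9, and Krt16, Krt17 and Krt42, with arm differences between -0.31 and 0.24. Krt16 and Krt17 are close relatives of Krt14. Whether the Krt14 probes also read their transcripts was not tested. Krt17 had -0.31 at both times (adjusted p = 0.166 at 4 h and 0.171 at 0 h), and Krt16 had -0.03 at 4 h and 0.22 at 0 h. Krt17 had 4.48 to 4.55 on plus-titled and 4.68 to 4.95 on no-titled arrays, with no overlap and the sign of Krt14. Of all genes tested, 20.7% did not overlap on 4 arrays against 4. The 3 genes on either side of Krt7 are Atg101, Smim41 and Krt80, and Krt87, Krt88 and Krt86. Atg101, an autophagy gene, had the sign of Krt7 at both times (0.31 at 4 h, adjusted p = 0.214, and 0.15 at 0 h, adjusted p = 0.597), and the other 5 had differences between -0.30 and 0.38.

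Of 42 other keratin genes listed, 41 were measured and 23 exceeded the yardstick. At 4 h 1 was called, Krt25, a hair-follicle keratin gene (-0.54 ± 0.12, adjusted p = 0.0197), whose mean signal of 4.19 lay below the yardstick. Its call was lost without any 1 of the 4 treated arrays. At 0 h limma called 0, with 6 at an unadjusted p under 0.05, and the values ran from -0.44 (Krt24) to 0.38 (Krt86). The share of all genes called was 9.61% at 4 h and 9.38% at 0 h. Among the 47 keratins that were listed and measured, Krt14 had the lowest and Krt7 the highest difference at both times.

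**Figure D3:**
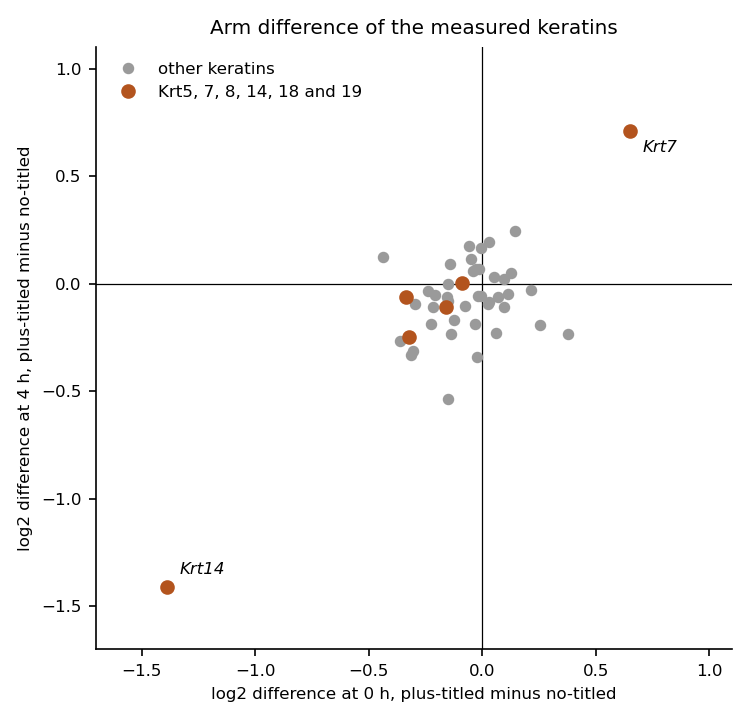
Arm difference (log2, plus-titled minus no-titled) at 0 h (x axis) and at 4 h (y axis) of the 47 keratins listed and measured. The 2 axes rest on different arrays. Krt14 (-1.39, -1.41) and Krt7 (0.65, 0.71) stand apart from the other keratins, which lie between -0.54 and 0.38.

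By pattern over the 8 arrays, the genes most like Krt14 were Irak1, an interleukin-1 receptor kinase gene (Pearson r = 0.996), Gm12238 (0.9948) and Met, the hepatocyte growth factor receptor gene (0.9945). Those most like Krt7 were Cap1, an actin regulator gene (0.9961), the receptor gene Lrp1 (0.9943) and Sbno2 (0.9938). The 8 points share 2 levels, the arms, and the coefficients mainly restate that step. Met had arm differences of -0.70 at both times, and Cap1 had 0.66 at 4 h and 0.67 at 0 h.

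Neither cadherin gene was called between the arms. Cdh1, which encodes E-cadherin of epithelial junctions, had 4.84 and 4.87 in plus-titled cells at 4 h and 4.83 and 4.92 at 0 h, against 5.01 and 5.19 in no-titled cells at 4 h and 5.01 and 4.90 at 0 h. The arms were separated at 4 h (-0.25, 95% interval -0.49 to 0.00, adjusted p = 0.226) and overlapped at 0 h (-0.08, adjusted p = 0.734). Cdh2, which encodes N-cadherin, had 8.96 and 8.99 in plus-titled cells at 4 h and 8.91 and 8.80 at 0 h, against 9.22 and 9.06 in no-titled cells at 4 h and 9.12 and 9.002 at 0 h. All 4 plus-titled arrays lay below all 4 no-titled arrays, but by little (-0.16 at 4 h, adjusted p = 0.458, and -0.21 at 0 h, adjusted p = 0.306). The 2 cadherin genes therefore had differences of the same sign, with E-cadherin near the yardstick throughout.

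Epcam had 4.31 and 4.06 in plus-titled cells at 4 h and 4.45 and 4.41 at 0 h, against 4.40 and 4.58 in no-titled cells at 4 h and 4.39 and 4.57 at 0 h. Treated plus-titled cells were the lowest group (-0.31 against treated no-titled cells, adjusted p = 0.18), and at 0 h the arms overlapped (-0.04, adjusted p = 0.882). The signal was below the yardstick on average.

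Vim, the mesenchymal filament gene, had 12.71 and 12.61 in plus-titled cells at 4 h and 12.64 and 12.69 at 0 h, against 12.98 and 12.92 in no-titled cells at 4 h and 12.99 on both arrays at 0 h. All plus-titled arrays lay below all no-titled arrays. The difference was -0.29 ± 0.10 at 4 h (95% interval -0.52 to -0.06, adjusted p = 0.125) and -0.32 ± 0.10 at 0 h (95% interval -0.55 to -0.09, adjusted p = 0.084). Neither passed. With a variance that follows the signal (limma trend and robust) both passed (adjusted p = 0.0148 and 0.00811). With cyclic loess, which removes differences that follow brightness, Vim fell to -0.16 at 4 h and -0.19 at 0 h (adjusted p = 0.381 and 0.294). Over the 17 alternatives the adjusted p ran from 0.0148 to 0.423 at 4 h and from 0.00811 to 0.294 at 0 h.

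Averaging the arm difference over both times uses all 8 arrays, 4 in each arm. This contrast was added after the values were seen. It called Krt14 (-1.40 ± 0.12, adjusted p = 3.38e-05), Krt7 (0.68 ± 0.09, adjusted p = 0.000334) and Vim (-0.30 ± 0.07, adjusted p = 0.0146), where 18.8% of all genes were called (11% higher and 7.74% lower). The call of Vim was lost with cyclic loess (-0.18, adjusted p = 0.116, the highest of its alternatives, which began at 0.000499). Leaving out replicate 2 of treated plus-titled cells, replicate 1 of treated no-titled cells or either array of untreated no-titled cells also removed it (adjusted p up to 0.0585). Krt18 had -0.28 ± 0.10 (adjusted p = 0.0671). Of the 41 other keratins the averaged contrast called 3, all type I and lower in the plus-titled arm. They were Krt25 (-0.35 ± 0.09, adjusted p = 0.0175), Krt28 (-0.31 ± 0.07, adjusted p = 0.0126) and Krt17 (-0.31 ± 0.09, adjusted p = 0.0326). Over the 8 arrays Krt25 averaged 4.19 and Krt28 4.12, below the yardstick of 4.66, and Krt17 averaged 4.67, barely above it. Krt17 was not called in 6 of the 8 fits leaving out an array (adjusted p up to 0.134) or with cyclic loess (0.064). Krt25 lost its call in 3 of those fits and Krt28 in 2 (adjusted p up to 0.081 and 0.053). On 4 arrays against 4, Krt7, Krt14, Cdh2 and Vim did not overlap between the arms, as did 20.7% of all genes.

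Dexamethasone left all 10 genes uncalled in both arms. In the plus-titled arm limma called 0 of 10, and 0 had an unadjusted p under 0.05, where 1.1% of all genes were called (0.823% higher and 0.281% lower). The responses ran from -0.25 (Epcam) to 0.26 (Krt8). In the no-titled arm limma also called 0 of 10, with 0 at an unadjusted p under 0.05, where 1.43% of all genes were called (1.03% higher and 0.401% lower), and the responses ran from -0.17 (Krt14) to 0.15 (Cdh1). All settings tried gave 0 members in both arms. Averaged over the arms, a contrast added after the values were seen, limma again called 0 of 10, with 0 at an unadjusted p under 0.05, where 2.96% of all genes were called (1.73% higher and 1.23% lower). The arrays do not exclude small responses: the widest 95% intervals were those of Krt14, -0.55 to 0.18 in the plus-titled arm and -0.53 to 0.20 in the no-titled arm. Vim responses were 0.00 (95% interval -0.23 to 0.23) in the plus-titled arm and -0.04 (-0.27 to 0.19) in the no-titled arm. Treated and untreated arrays did not overlap for 4 members in the plus-titled arm and 3 in the no-titled arm, against 36.1% and 40.5% of all genes.

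**Figure D4:**
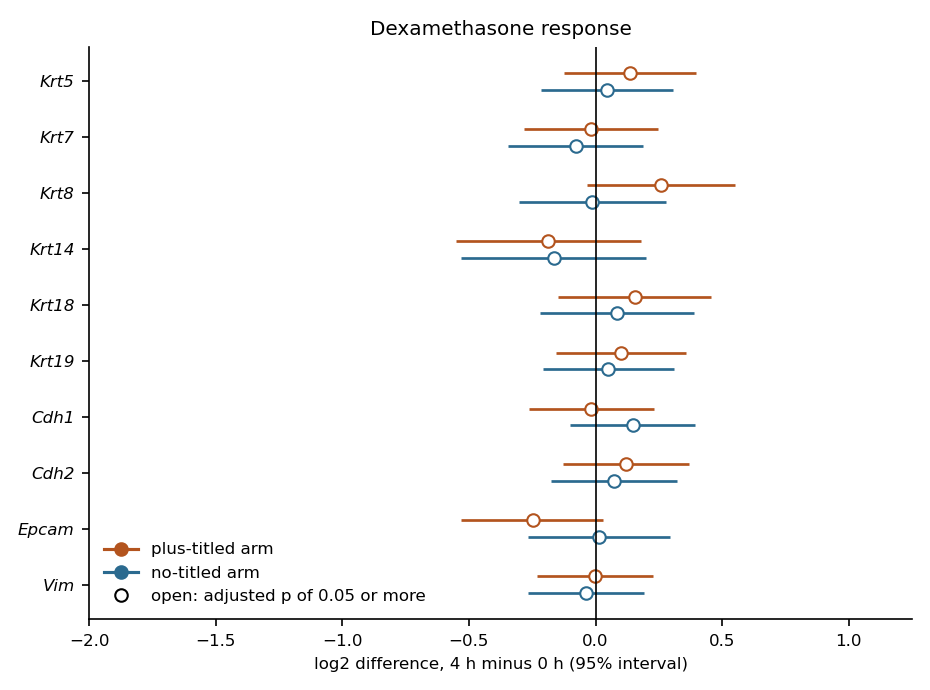
Log2 response to 4 h of dexamethasone (4 h minus 0 h, x axis) of each gene in the plus-titled and the no-titled arm, with 95% intervals from the limma model. No gene passed in either arm, and every interval includes 0. Krt8 (0.26) and Epcam (-0.25) in the plus-titled arm lie farthest from 0.

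The responses of the 2 arms were compared by their difference, plus-titled minus no-titled. Limma called 0 of 10, with 0 at an unadjusted p under 0.05, where 0.00502% of all genes were called. Krt8 had the largest value, 0.27 (95% interval -0.14 to 0.68), from responses of 0.26 in the plus-titled arm and -0.01 in the no-titled arm. Epcam had -0.26 (95% interval -0.66 to 0.13). For Krt14 the difference of responses was -0.02 (95% interval -0.54 to 0.50), and for Krt7 it was 0.06 (95% interval -0.31 to 0.43). The estimated step between the arms was thus of like size at 4 h and at 0 h. The intervals do not exclude a change in its size.

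The genes around keratins and cadherins in the cell were read from lists. Among desmosome and hemidesmosome genes, which anchor keratin filaments at the membrane, 19 were measured. Between the arms 1 was higher and 2 lower at 4 h, and 2 were higher and 1 lower at 0 h. The share of all genes called was 9.61% at 4 h and 9.38% at 0 h. Jup, which encodes plakoglobin, a catenin of desmosomes and adherens junctions, had 7.10 and 7.02 in plus-titled cells at 4 h and 7.27 and 7.11 at 0 h, against 6.27 and 6.01 in no-titled cells at 4 h and 6.13 and 6.17 at 0 h. It was higher in the plus-titled arm by 0.92 ± 0.12 at 4 h (adjusted p = 0.00135) and 1.04 ± 0.12 at 0 h (adjusted p = 0.000861), and stayed called without any 1 array. Plec, which encodes the linker plectin, was lower by -0.45 at 4 h and -0.66 at 0 h. Its call at 4 h was lost without any 1 of the treated arrays (adjusted p up to 0.169), and at 0 h without replicate 1 of the untreated no-titled group (adjusted p = 0.0586). The desmosomal plaque gene Pkp2 was higher at 0 h by 0.50, a call that 3 of the 8 fits leaving out an array lost (adjusted p up to 0.0942).

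Pkp1, the plakophilin gene that links desmosomes to keratin filaments, responded to the hormone. It had 7.82 and 7.69 in plus-titled cells at 4 h against 7.20 and 6.98 at 0 h, and 8.82 and 8.88 in no-titled cells at 4 h against 7.44 and 7.45 at 0 h. Treated cells were higher in both arms without overlap, and treated no-titled cells were the highest group. It rose by 1.41 ± 0.12 in the no-titled arm (adjusted p = 8.71e-05) and by 0.67 ± 0.12 in the plus-titled arm (adjusted p = 0.0194). The second call was lost without 3 of the 4 plus-titled arrays (adjusted p up to 0.146) and with only the arrays compared (0.0703). The difference of these responses, -0.74 ± 0.16, did not pass (adjusted p = 0.49). At 4 h Pkp1 was lower in the plus-titled arm (-1.10 ± 0.12, adjusted p = 0.000425). Pkp2 rose by 0.62 in the no-titled arm, a call lost without any 1 of that arm's arrays (adjusted p up to 0.118). Of the 19 genes, 1 rose in the plus-titled arm and 2 in the no-titled arm, and 0 fell. Hormone calls made up 1.1% of all genes in the plus-titled arm and 1.43% in the no-titled arm.

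Among 16 adherens junction genes and other cadherins, 1 was higher in the plus-titled arm at 4 h, 2 were higher at 0 h and 0 were lower. Of all genes tested, 9.61% were called at 4 h and 9.38% at 0 h. The median difference of the list was -0.02 at 4 h and 0.08 at 0 h. Nectin2, a cell adhesion molecule gene, was higher by 0.70 ± 0.16 at 4 h and 0.96 ± 0.16 at 0 h. At 4 h 3 of the 8 such fits did not call it (adjusted p up to 0.148). Ctnnd1, which encodes the p120 catenin that holds cadherins at the membrane, was higher at 0 h (0.50, adjusted p = 0.0294), not called in 3 of them (up to 0.165) and with only the arrays compared (0.0572). With hormone Nectin1 rose by 0.78 in the no-titled arm, lost in 3 of the fits (up to 0.176) and with only the arrays compared (0.0589), and it had 0.44 in the plus-titled arm (adjusted p = 0.224). Among 19 tight junction and polarity genes, 2 were higher in the plus-titled arm at 4 h, 1 at 0 h and 0 were lower. These counts stand beside the same shares of all genes, and the list medians were 0.04 at 4 h and -0.02 at 0 h. The polarity gene Llgl2 was higher by 0.88 ± 0.15 at 4 h (adjusted p = 0.00453) and by 0.64 ± 0.15 at 0 h (adjusted p = 0.0211). At 0 h that call was lost in 3 of the 8 fits (up to 0.117). The polarity scaffold gene Mpp5 was higher at 4 h by 0.60, lost in 3 fits (up to 0.0549).

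Among 15 filament genes outside the keratins, 0 were higher and 3 lower in the plus-titled arm at 4 h, and 1 was higher and 3 lower at 0 h. Of all genes tested, 9.61% were called at 4 h (4.32% lower) and 9.38% at 0 h (3.18% lower). Lmna, the gene of nuclear lamins A and C, had 9.58 and 9.36 in plus-titled cells at 4 h and 9.63 and 9.58 at 0 h, against 10.61 and 10.40 in no-titled cells at 4 h and 10.81 and 10.57 at 0 h. It was lower by -1.03 ± 0.13 at 4 h and -1.09 ± 0.13 at 0 h (adjusted p = 0.00118 and 0.00102) and stayed called without any 1 array. Lmnb1, the gene of lamin B1, was lower by -0.79 at 4 h and -0.66 at 0 h, with 2 and 3 of the 8 fits losing the call (adjusted p up to 0.0658 and 0.117). Nes, the gene of nestin, a vimentin partner, was lower by -0.60 at 4 h, lost in 2 fits (up to 0.11). Des, the muscle filament gene desmin, was higher at 0 h by 0.88 ± 0.17 (adjusted p = 0.0094), lost in 2 fits (up to 0.0709).

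Of 15 measured transcription factor and Id genes linked to epithelial-mesenchymal transition, 0 were higher and 2 lower in the plus-titled arm at 4 h, and 13 did not pass. At 0 h 2 were higher (Foxc1 and Id3) and 3 lower (Snai2, Zeb2 and Sox9), and 10 did not pass. The 0 h call of Sox9 (-0.38) was kept in 0 of the 8 fits leaving out an array. It was also lost with only the arrays compared, with median centring and with every probe set tested (limma adjusted p up to 0.101). Id3 (0.58) kept its 0 h call in 6 of the 8 fits. The share of all genes called was 9.61% at 4 h and 9.38% at 0 h. Snai2, the gene of the repressor Slug, had 7.24 and 7.30 in plus-titled cells at 4 h and 7.14 and 6.89 at 0 h, against 7.25 and 7.40 in no-titled cells at 4 h and 7.84 and 8.03 at 0 h. Untreated no-titled cells were the high group. At 0 h it was lower in the plus-titled arm by -0.92 ± 0.13 (adjusted p = 0.00172), also without any 1 array. Zeb2, a repressor gene of the same program, was lower at 0 h by -0.61 (adjusted p = 0.00732), lost without replicate 1 of the untreated no-titled group (0.079). Foxc1 was higher at 0 h by 0.60, with 3 of the 8 fits losing the call (adjusted p up to 0.201). At 4 h Id2, an inhibitor of helix-loop-helix factors, was lower by -0.85 and Sox9 by -0.39. The call of Id2 was lost in 3 of the fits and with every probe set tested, and that of Sox9 in 6 fits, with only the arrays compared and with median centring (adjusted p up to 0.257 and 0.163). With hormone in the no-titled arm Id1 rose by 1.17 ± 0.18 (adjusted p = 0.0063), Id3 rose by 0.54 and Snai2 fell by 0.62. Of the 8 fits, 3 did not call Id1 (adjusted p up to 0.069), and 6 did not call Id3 or Snai2 (up to 0.265 and 0.344). Both were also lost with only the arrays compared and with every probe set tested, and Snai2 with the replicate block and median centring (adjusted p up to 0.0663 for Id3 and 0.0747 for Snai2). In the plus-titled arm limma called 0 of the 15, with 4 at an unadjusted p under 0.05, and the response of Snai2 was 0.25. Hormone calls made up 1.1% of all genes in the plus-titled arm and 1.43% in the no-titled arm. The difference of the responses of Snai2, 0.87 ± 0.18, did not pass (adjusted p = 0.382).

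**Figure D5:**
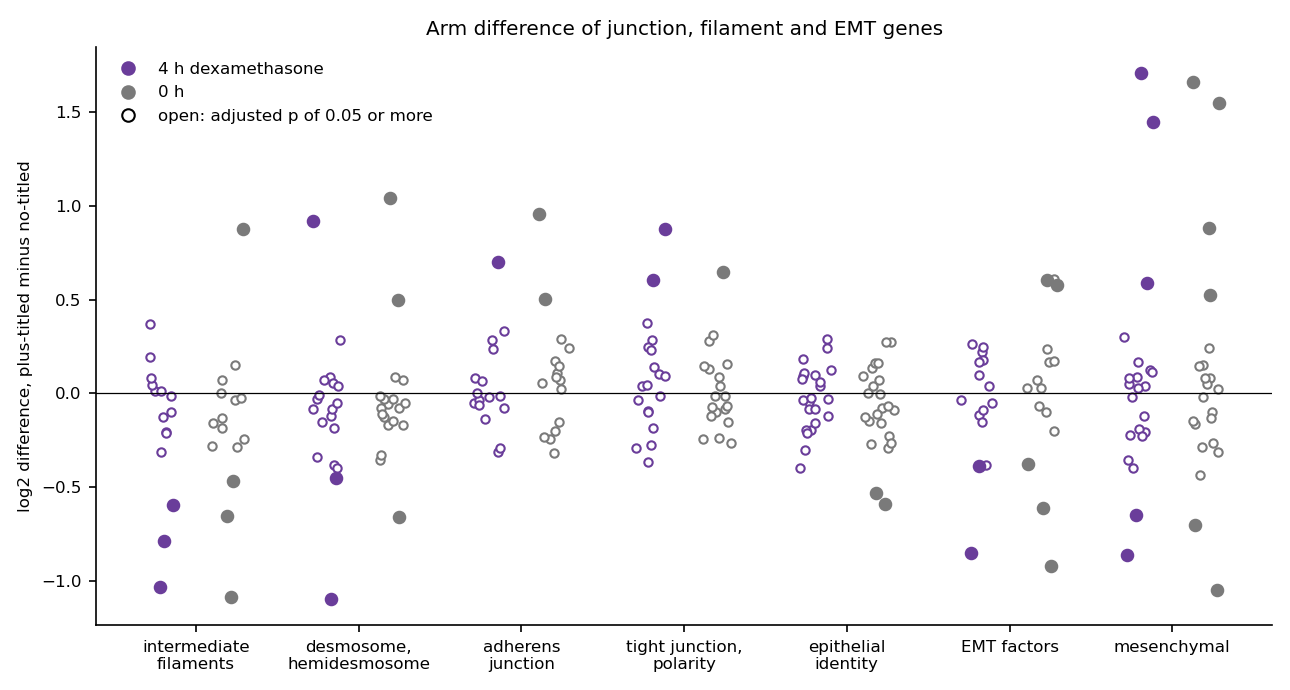
Arm difference (log2, plus-titled minus no-titled, y axis) of every measured member of 7 lists at 4 h and at 0 h. Each point is a gene, and filled points passed an adjusted p of 0.05. Called genes lie on both sides of 0 among mesenchymal markers. The few called among adherens and tight junction genes lie above 0. Of all genes tested, 5.29% were called higher and 4.32% lower at 4 h, and 6.2% and 3.18% at 0 h.

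Of 22 measured mesenchymal markers, the genes that Vim belongs with, 3 were higher and 2 lower in the plus-titled arm at 4 h. At 0 h 4 were higher and 2 lower. The median was 0.03 at 4 h and 0.00 at 0 h. The share of all genes called was 9.61% at 4 h and 9.38% at 0 h. Nt5e, the ectonucleotidase gene of CD73, had 8.6 and 8.58 in plus-titled cells at 4 h and 8.04 and 7.93 at 0 h, against 6.72 and 7.04 in no-titled cells at 4 h and 6.51 and 6.36 at 0 h. It was higher by 1.71 ± 0.13 at 4 h and 1.55 ± 0.13 at 0 h (adjusted p = 8.79e-05 and 0.00014). S100a4, a calcium-binding protein gene, was lower by -0.86 ± 0.14 at 4 h and -1.05 ± 0.14 at 0 h (adjusted p = 0.00423 and 0.00164). Both genes stayed called without any 1 array. Acta2, the smooth-muscle actin gene, was higher by 1.45 ± 0.39 at 4 h and 1.66 ± 0.39 at 0 h, with replicates far apart in the plus-titled arm (7.87 and 6.63 at 4 h, 8.15 and 6.96 at 0 h). Without replicate 1 of the plus-titled group it had 0.83 at 4 h (adjusted p = 0.26) and 1.07 at 0 h (adjusted p = 0.175). In all 5 of the 8 fits at 4 h and 3 at 0 h lost the call, as did the trended robust variance and every probe set tested at 4 h (adjusted p up to 0.0665). With hormone 1 of the 22 fell in the plus-titled arm, the growth factor receptor gene Pdgfrb (-0.75 ± 0.13, adjusted p = 0.0191), lost in 3 of the fits (up to 0.201). In the no-titled arm limma called 0, with 4 at an unadjusted p under 0.05. Hormone calls made up 1.1% of all genes in the plus-titled arm and 1.43% in the no-titled arm.

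Of 23 regulators and surface genes of epithelial identity, Cd24a, a surface glycoprotein gene, rose with hormone in both arms, by 0.78 ± 0.13 in the plus-titled arm (adjusted p = 0.014) and by 0.91 ± 0.13 in the no-titled arm (adjusted p = 0.00371). It was the only 1 called with hormone, beside 1.1% of all genes in the plus-titled arm and 1.43% in the no-titled arm. In the plus-titled arm 3 of the 8 fits did not call it (adjusted p up to 0.108). Between the arms limma called 0 at 4 h, with 2 at an unadjusted p under 0.05. At 0 h the Kruppel-like factor genes Klf4 (-0.59) and Klf5 (-0.53) were lower in the plus-titled arm. The share of all genes called was 9.61% at 4 h and 9.38% at 0 h. Of the 8 fits, 2 did not call Klf4 and 3 did not call Klf5 (adjusted p up to 0.176 and 0.181). With hormone 0 of the 41 other keratins were called by limma in either arm, with 4 at an unadjusted p under 0.05 in the plus-titled arm and 0 in the no-titled arm.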

How the data were processed

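The authors deposited log2 values for 28888 probe sets on 8 arrays. Per the submitters' processing notes they come from Affymetrix Expression Console and RMA, with no version given in the sources used here. RMA equalizes the arrays, which hides a change common to most genes and compresses small changes of dim probe sets. The number of arrays limits the precision.

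The array's annotation gave exactly 1 symbol to 21789 probe sets, several to 1621 and none, in the table used, to 5478. Symbols were updated by gene number from a RefSeq mouse table. Each gene took its brightest probe set by mean, which left 19938 genes, and dim genes were kept. Promoter windows with their coordinates are those of RefSeq in GRCm38.p6.

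Tests used limma 3.58.1 (lmFit, eBayes) in R 4.3.3, with 1 mean for each group fitted to all 8 arrays. They were 2-sided, and p-values were adjusted by Benjamini-Hochberg over all 19938 genes. Genes with an adjusted p under 0.05 are called. Residual degrees of freedom were 4, and 6.64 came from the prior. Contrasts were the hormone response in each arm, the arm difference at each time and the difference of the responses.

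The members and the 14 gene lists were chosen with earlier results of these data known. Of 210 distinct list genes, 202 were measured. For each list and contrast the text could name the 3 called genes of largest change, or the 1 of smallest p where no gene passed. For Krt7 and Krt14 it names the 3 genes of highest correlation. The neighbours of both and the extremes of the other keratins were named outside this rule, after their values were seen. Results were recomputed with a trended robust variance, with the compared arrays alone, with a block for the replicate number, without the dimmest 30% of genes, after median centring or cyclic loess, with 2 other uses of probe sets, with a 1.5-fold minimum and without each array.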

Additional observations from a re-analysis of the deposited data

How the results depend on the processing

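Krt14 was called between the arms at both times under all 17 alternatives (values from -1.58 to -1.20), and Krt7 under all 17 at 4 h and 16 at 0 h. Without 1 array, 1 to 2 of the 10 genes were called for the arm difference at 0 h and 2 for that at 4 h, and 2 to 3 for the average of both times. The replicate number as a block left 2 genes called at 0 h, 2 at 4 h and 0 for either hormone response. Deviations of same-numbered arrays correlated between -0.019 and 0.133 over the 6 pairs of groups. Such weak correlations across genes cannot decide whether the numbers pair the samples. Krt14 and Krt7 read higher on replicate 1 than on replicate 2 in every group, and no other member did. In all, 1183 member values were recomputed: 7 lost and 5 gained a call, 0 called values changed sign, and 40 uncalled values did. Krt18, uncalled on average over both times, was called there with the dimmest 30% of genes left out, which tests fewer genes (adjusted p = 0.0377), and without replicate 2 of the untreated no-titled group (0.0314, its lowest). With those genes left out Epcam was not tested, and Vim was called at 0 h (adjusted p = 0.0437). A 1.5-fold minimum removed the averaged call of Vim (-0.30). Over all genes the arm difference had 1916 calls at 4 h (654 to 2609 over the alternatives) and 1870 at 0 h (589 to 2594), and their average 3741 (882 to 4386). The hormone response had 220 in the plus-titled arm (80 to 370), 285 in the no-titled arm (134 to 461) and 590 on average (220 to 846), and the difference of responses 1 (0 to 11). Counts within the lists also moved: over the 17 alternatives the transcription factor list had 2 to 6 calls at 0 h and 0 to 3 at 4 h, mesenchymal markers 4 to 8 and 3 to 7, and desmosome genes 1 to 4 and 2 to 3. Filament genes had 1 to 4 and 1 to 3, adherens genes 1 to 3 and 0 to 2, tight junction genes 0 to 1 and 1 to 3, and epithelial identity genes 0 to 2 and 0 to 1. With hormone, desmosome genes had 0 to 2 in the plus-titled and 1 to 2 in the no-titled arm, mesenchymal markers 0 to 2 in each, and the transcription factor list 0 and 0 to 5. The causes were not tested.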
